A study of Mus musculus with 48 samples.

Results

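The genes described are those of the cytosolic ribosomal proteins, the protein parts of the ribosomes that translate mRNA outside mitochondria. They were taken from the annotation of the array by symbol: Rpl or Rps followed by a digit, or Rplp0, Rplp1, Rplp2 or Rpsa, without the S6 kinases, pseudogenes and Rps19bp1. This gave 71 of the 17097 genes that have a probe set with a single symbol, and 134 of 45037 probe sets. A probe set is a group of short oligonucleotides meant to read 1 transcript, and for the 34 genes with several the one with the highest mean over all 48 arrays was used. Some of those used carry a suffix of shared oligonucleotides and may not read their gene alone, among them those of Rps18, Rps20, Rps21 and Rps29. Of the 71 genes, 41 encode core proteins of the large subunit, 24 encode core proteins of the small subunit, and 6 encode variants that resemble a core protein (Rpl3l, Rpl22l1, Rpl36al, Rpl39l, Rpl7l1 and Rps27l). The mouse annotation of RefSeq holds 88 coding genes whose symbols fit the rule. Rpl5 and Rps3 have a probe set only together with other symbols and have no value here.

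Tia1 knockout (KO) and wild type (WT) mice were killed at 3 or 6 months of age, and mRNA was measured in their liver, midbrain, cerebellum and spinal cord. Each of the 16 groups held 3 mice and each mouse gave all 4 tissues, so that 12 mice gave 48 arrays. All mice had the C57Bl/6 background (C57BL6/J in the methods). In the KO mice, homologous recombination at exon 4 of Tia1 leaves a shortened mRNA and no TIA-1 protein, with no restriction to a cell type. The KO mice were bred from homozygous parents, and the methods take the WT mice from a supplier while the design text calls them littermates, so the deletion and the colony cannot be told apart. The values are log2 expression values, made by the authors with Robust Multichip Average and used as deposited. Precision is limited by the number of arrays. The p-values measure the spread between mice within groups, pooled for each probe set over all 16 groups and so over the 4 tissues. Over all probe sets this spread was larger in liver (median SD 0.218) than in nervous tissue (0.115 in midbrain to 0.133 in cerebellum). Calls and shares in liver therefore rest on a spread that comes in part from less variable tissues.

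The mRNAs of ribosomal proteins are the textbook example of TOP mRNAs, which begin with a cytosine followed by a run of pyrimidines (the terminal oligopyrimidine tract). The cell translates them or holds them back together, under the control of the mTOR kinase and of LARP1, a protein that binds their 5′ end. TIA-1, an RNA-binding protein of stress granules, and its relative TIAR are known to attach to TOP mRNAs during amino acid starvation and to hold back their translation. An array reads the amount of mRNA and not its translation.

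The tract was looked for in RefSeq promoters of build GRCm38.p6, which matched 57 of the 71 genes. A start with C followed by at least 4 pyrimidines (C or T, on the strand of the gene) was present in 11 of the 57 genes, or 19.3%, against 3.01% of the 27025 genes with a promoter. All 11 were core genes, 21.6% of the 51 core genes matched, and 0 of the 6 variants had it. This form needs the C exactly at the annotated start, so a start annotated some bases off would be missed. The share is thus no count of TOP mRNAs. A looser form, C followed by at least 7 pyrimidines anywhere in the first 50 bases after the annotated start, was present in 37 genes (64.9%), against 15.4% of all genes. It was present in 34 of the 51 core genes (66.7%) and in 3 of the 6 variants (50%). In the 300 bases around the start, the letters CCGGAA (on either strand), the core of the motif of ETS factors, stood in 30 genes (52.6%), against 16.7% of all genes. The letters ATGGCG (on either strand), the core of the motif of YY1, stood in 18 genes (31.6%), against 10.2%. A match is a description of the letters and not a site of binding. Shown here, with the tract in capitals, are the 10 bases before and 20 bases after the annotated start of 7 core genes with a tract. Rps6, Rps18, Rplp2, Rpl14 and Rps15a are shown because they are described below, and Rps10 and Rpl15 as examples of longer tracts.
Rps6, chr4:86857348-86857377, minus strand: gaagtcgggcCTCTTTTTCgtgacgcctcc
Rps18, chr17:33955646-33955675, minus strand: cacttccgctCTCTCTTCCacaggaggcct
Rplp2, chr7:141447641-141447670, plus strand: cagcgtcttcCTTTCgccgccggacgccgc
Rps10, chr17:27635225-27635254, minus strand: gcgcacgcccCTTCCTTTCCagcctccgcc
Rpl15, chr14:18270967-18270996, minus strand: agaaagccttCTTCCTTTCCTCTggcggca
Rpl14, chr9:120571507-120571536, plus strand: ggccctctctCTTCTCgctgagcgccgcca
Rps15a, chr7:118116128-118116157, minus strand: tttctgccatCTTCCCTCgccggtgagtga
The same window in 4 variants, whose expression by tissue is described below, holds no tract at the annotated start. That of Rpl22l1 holds a run of the looser form further downstream.
Rps27l, chr9:66946076-66946105, plus strand: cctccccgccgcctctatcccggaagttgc
Rpl36al, chr12:69184048-69184077, minus strand: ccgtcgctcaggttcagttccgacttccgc
Rpl22l1, chr3:28805498-28805527, plus strand: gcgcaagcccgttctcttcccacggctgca
Rpl7l1, chr17:46782637-46782666, minus strand: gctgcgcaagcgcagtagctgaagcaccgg

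The exon 4 probe set of Tia1 was lower in KO than in WT mice in all 8 comparisons of the same tissue and age, by -2.35 (midbrain, 3 months) to -1.79 (cerebellum, 6 months) in nervous tissue and by -0.76 and -0.39 in liver at 3 and 6 months, and the groups did not overlap within an age. Arrays correlated at 0.985 or more within groups. The marker lists of the 4 tissues had their highest values in the labelled tissue. Markers of skeletal muscle averaged over 7 (log2) on 5 arrays, 4 of spinal cord and 1 of liver, while they averaged 2.92 to 3.22 in cerebellum and midbrain. Markers of choroid plexus averaged over 8 on 7 arrays, midbrain of KO mouse 122973 at 3 months and otherwise cerebellum. The cerebellum arrays were WT mouse 2 at 3 months, WT mice 2 and 3 at 6 months, KO mouse 122970 at both ages and KO mouse 122972 at 6 months. Counts without these arrays are given where they move a result, except for age in WT cerebellum without the arrays high in choroid plexus markers.

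Most of the 71 genes were among the brightest probe sets of the chip. The mean over all arrays was above the 98th percentile for 63 genes and over 10 (log2) for 64 genes. Rps6, the protein phosphorylated by S6 kinase, had the highest mean (12.68), followed by Rps29 (12.62) and Rps3a1 (12.27). At the other end stood the muscle paralog Rpl3l (2.70), the testis paralog Rpl39l (3.00), both under the median of all probe sets, and Rpl14 (5.27), at the percentile of 60.5. The level of a probe set depends on its oligonucleotides, so these values do not order the genes by mRNA amount. The replicates were close: the median SD within groups over the 71 genes was 0.0423 in midbrain (0.115 over all probe sets), 0.0531 in spinal cord (0.122), 0.0673 in liver (0.218) and 0.0808 in cerebellum (0.133).

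The mean of the 65 core genes on an array, given as a description, was 11.38 to 11.46 on the 12 spinal cord arrays, 11.08 to 11.24 in cerebellum, 11.44 to 11.49 in midbrain and 11.23 to 11.34 in liver. Every cerebellum array lay below every spinal cord and midbrain array. The lowest array of all was cerebellum of WT mouse 1 at 3 months, whose median over all probe sets was also the lowest of the cerebellum arrays (4.10, the others 4.21 to 4.27).

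**Figure D1:**
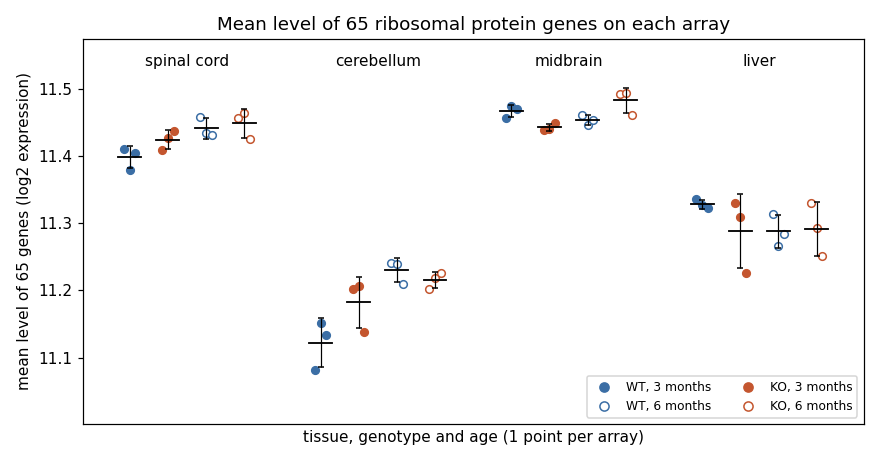
The plot of core means gives the mean log2 expression of the 65 core ribosomal protein genes on each of the 48 arrays (points, filled for 3 and open for 6 months, colored by genotype), with the mean and SD of each group of 3 mice as lines. The cerebellum arrays (11.08 to 11.24) lie below all arrays of spinal cord (11.38 to 11.46) and midbrain (11.44 to 11.49), and over both ages KO and WT arrays overlap in each of the 4 tissues.

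Cerebellum stood apart from the other nervous tissues. In WT mice, 56 of the 71 genes were higher in spinal cord than in cerebellum and 2 were lower, where 26.5% of all probe sets were higher and 25.9% lower (limma's moderated test, adjusted p under 0.05 after Benjamini-Hochberg adjustment over 45037 probe sets, 6 mice per tissue). Midbrain was higher than cerebellum for 60 genes and lower for 0, against 24.6% and 22.6% of all probe sets. Both comparisons use the same cerebellum arrays. The median difference over the 71 genes was 0.26 (log2) for spinal cord minus cerebellum and 0.27 for midbrain minus cerebellum, where the median over all probe sets was -0.02 and -0.01. In KO mice, 59 genes were higher and 1 lower in spinal cord than in cerebellum (26.3% and 26.8% of all probe sets), and 60 were higher and 1 lower in midbrain than in cerebellum (23.8% and 23.8%). For 53 genes spinal cord was higher in both genotypes, and for 57 genes midbrain was. The share of all probe sets that were higher in both genotypes was not computed. Every cerebellum array lay below every spinal cord and midbrain array for 35 genes in WT mice, where this held for 13.3% of all probe sets, and for 44 genes in KO mice (13.9%). Of the core genes, 32 of 41 in the large and 20 of 24 in the small subunit were higher in spinal cord than in cerebellum of WT mice.

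Rpsa, a protein of the small subunit that is also known as the laminin receptor, had the largest difference between spinal cord and cerebellum among the bright genes. Its level in WT mice was 11.54 to 11.62 in spinal cord (median 11.55), 10.71 to 11.10 in cerebellum (median 10.98) and 11.43 to 11.64 in midbrain (median 11.54). The cerebellum arrays did not overlap with the others. Spinal cord exceeded cerebellum by 0.61 (SE 0.05, adjusted p = 1.29e-13) and midbrain exceeded it by 0.57 (adjusted p = 7.67e-13), and in KO mice the difference for spinal cord was 0.62. Rps26, at the mRNA exit of the small subunit, read 11.04 to 11.13 in spinal cord, 10.45 to 10.60 in cerebellum and 10.99 to 11.03 in midbrain, a difference of 0.60 (SE 0.04, adjusted p = 8.77e-16) between spinal cord and cerebellum. Rps20, also of the small subunit, differed by 0.55 in the same comparison. Rpl36a of the large subunit read 10.09 to 10.37 in cerebellum and 10.85 to 10.93 in midbrain, a difference of 0.58 (adjusted p = 4.11e-13). Rps19, the gene most often mutated in Diamond-Blackfan anemia, read 10.53 to 10.98 in cerebellum and 11.28 to 11.38 in midbrain, a difference of 0.51 (adjusted p = 2.45e-10). Rpl11, which binds 5S RNA and can hold back MDM2, read 10.90 to 11.38 in cerebellum and 11.59 to 11.73 in spinal cord, a difference of 0.46 (adjusted p = 4.22e-09). The dim probe set of Rpl14 gave the largest difference of all, 0.69 (SE 0.10, adjusted p = 9.66e-08) for spinal cord minus cerebellum, at 4.33 to 4.98 in cerebellum and 5.04 to 5.70 in spinal cord.

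The brightest probe set of Rps6 read 12.77 to 12.90 in spinal cord and 12.54 to 12.66 in cerebellum of WT mice, without overlap, a difference of 0.20 (adjusted p = 2.85e-05), while another probe set of Rps6, with a mean of 7.80, gave 0.98 (adjusted p = 3.05e-16) and 0.67 for midbrain minus cerebellum. Of the stalk proteins, which bind the translation factors, Rplp1 exceeded cerebellum by 0.33 and Rplp2 by 0.18 in spinal cord, and both were higher in midbrain as well (0.31 and 0.23). Rplp0, on which the stalk is built, was higher in spinal cord than in cerebellum by 0.30, while midbrain minus cerebellum was 0.11 (adjusted p = 0.0949). The genes that were lower in spinal cord than in cerebellum were Rpl7l1, a variant tied to ribosome assembly, at -0.28 (SE 0.06, adjusted p = 2.72e-05, -0.40 in KO mice), and Rps29 at -0.10 (adjusted p = 0.0424, but adjusted p = 0.970 in KO mice). The call of Rps29 was lost when any of 8 mice was left out.

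The other probe sets of the same genes were compared as well. Of these 63 probe sets, 34 had a mean over 8, and in WT mice 30 of them were lower in cerebellum than in spinal cord and 31 lower than in midbrain. Of the 29 dimmer ones, 11 were lower in cerebellum than in spinal cord and 7 higher, with spinal cord minus cerebellum at -0.68 for a probe set of Rps10 and -0.46 for one of Rpl9. With each array centred on its own median, 49 genes were higher in spinal cord than in cerebellum of WT mice and 2 lower (23.7% and 30.7% of all probe sets). Midbrain was then higher for 58 and lower for 0 (22.1% and 25.6%). Without the 5 arrays high in muscle markers, 53 genes were higher in spinal cord and 1 lower, and without the 7 arrays high in choroid plexus markers, 49 and 1. Shares of all probe sets were not computed without these arrays. Cell type markers also differed between these tissues. In WT mice, 4 oligodendrocyte markers averaged 8.44 to 8.71 in cerebellum against 10.10 to 10.43 in spinal cord and 9.80 to 9.86 in midbrain. The 5 astrocyte markers averaged 8.14 to 8.33, 9.38 to 9.57 and 8.61 to 8.69 in the same order, and the 5 neuron markers 11.35 to 11.43, 10.99 to 11.10 and 11.17 to 11.24. In pieces of tissue, a different mix of cells and a different amount of mRNA per cell cannot be told apart, and the part of the cell mix in these differences was not tested.

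**Figure D2:**
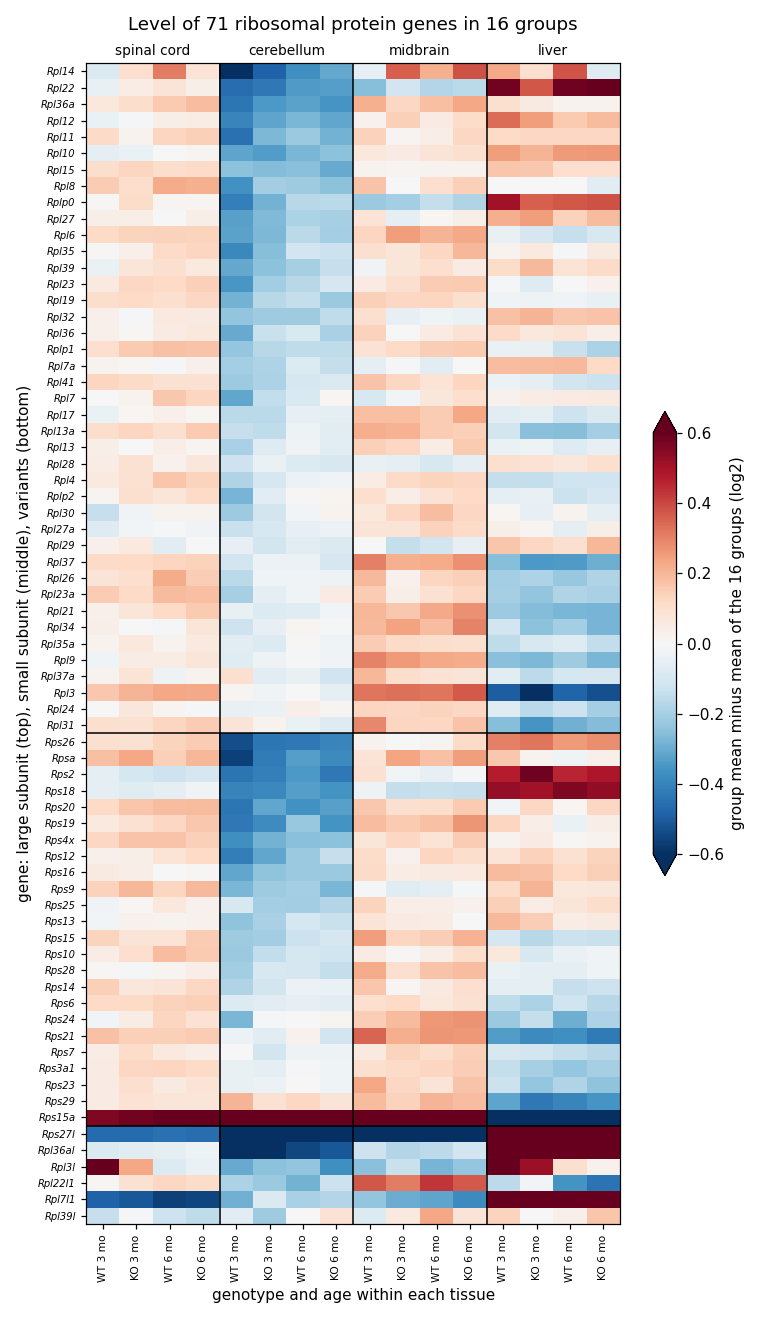
The heat map of members gives each of the 16 group means (columns, by tissue, genotype and age) as the log2 difference from the mean of the 16 groups, with 1 row for each of the 71 genes and colors that stop at the ends of the bar. The cerebellum columns are below the mean for most rows, and the rows of Rps15a, Rps27l, Rpl7l1 and Rpl36al differ most between liver and nervous tissue.

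Between spinal cord and midbrain fewer genes differed. In WT mice, 4 genes were higher in spinal cord and 17 lower, against 14.6% and 15.5% of all probe sets, and in KO mice 7 were higher (15.6%) and 12 lower (15.3%). The calls in the higher direction in WT mice were Rps27l (0.30, SE 0.06, adjusted p = 6.39e-05), Rpl22 (0.23), Rplp0 (0.20) and Rps9 (0.17), and these 4 genes were also higher in KO mice (0.37, 0.18, 0.26 and 0.24). The largest differences in the other direction were those of Rps15a (-0.43, SE 0.10, adjusted p = 0.00140), Rpl22l1 (-0.33), Rpl9 (-0.25), Rpl7l1 (-0.24) and Rps28 (-0.18). The count in KO mice depended on single mice, from 11 to 22 genes, and was 11 without mouse 122970 or without mouse 122972 at 3 months.

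Liver differed from nervous tissue gene by gene. Compared with the mean of the 3 nervous tissues in WT mice, 28 of the 71 genes were higher in liver and 29 lower, where 47.4% of all probe sets were higher and 35.4% lower, and in KO mice 25 were higher (46.8%) and 29 lower (35.1%). For 24 genes liver was higher, and for 29 lower, in both genotypes, and the shares of all probe sets for both genotypes together were not computed. The split depends on the scaling. The median of an array over all probe sets was 3.95 to 3.99 in liver and 4.10 to 4.32 in nervous tissue, and with each array centred on its median, which moves the median of all probe sets from 0.12 to 0.41, 55 genes were higher in liver and 6 lower (63.4% and 26.9% of all probe sets). In KO mice it became 53 higher and 8 lower (63.3% and 27.1%). The 6 genes lower in liver under both scalings in WT mice were Rpl3, Rpl31, Rpl37, Rps15a, Rps21 and Rps29. Every liver array lay above every nervous tissue array for 10 genes in WT mice (18.9% of all probe sets) and 11 in KO mice (19.0%), and below them for 6 (18.6%) and 11 (19.0%).

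Of the 6 variants, Rps27l, Rpl36al and Rpl7l1 were higher in liver by over 1 (log2). Rps27l, a small subunit variant known as a target of p53, read 11.49 to 11.65 in liver of WT mice (median 11.58), 8.90 to 9.02 in spinal cord, 8.39 to 8.76 in cerebellum and 8.44 to 8.77 in midbrain. Liver was higher by 2.83 (SE 0.05, 7.12-fold, adjusted p = 4.38e-37) and in KO mice by 2.86. Rpl36al, a paralog of the large subunit gene Rpl36a, read 11.39 to 11.71 in liver and at most 10.73 in nervous tissue, a difference of 1.06 (SE 0.04, 2.08-fold, adjusted p = 7.44e-26), while Rpl36a itself differed by 0.08 (adjusted p = 0.0510) in the same comparison. With arrays centred on their medians, Rpl36a was higher in liver as well, by 0.37 (adjusted p = 1.05e-11), and Rpl36al by 1.35. The only probe set of Rpl36al carries a suffix of shared oligonucleotides, so it may not read this gene alone. Rpl7l1 read 8.42 to 8.65 in liver and 6.87 to 7.31 in nervous tissue, a difference of 1.41 (SE 0.04, 2.65-fold, adjusted p = 2.18e-27). For these 3 variants every liver array of WT mice lay above every nervous tissue array.

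Rpl22 and its paralog Rpl22l1, which can take its place in the large subunit, differed in opposite directions on the deposited scale by their brightest probe sets. Rpl22 read 10.00 to 10.10 in liver and 8.85 to 9.66 in nervous tissue of WT mice, a difference of 0.78 (SE 0.04, adjusted p = 5.20e-19), and 0.66 in KO mice. Rpl22l1 read 10.26 to 10.60 in liver, 10.58 to 10.90 in spinal cord, 10.12 to 10.80 in cerebellum and 10.98 to 11.13 in midbrain. Its difference was -0.33 (SE 0.07, adjusted p = 1.94e-05), and -0.32 in KO mice. With arrays centred on their medians the difference of Rpl22 was 1.07, and that of Rpl22l1 was -0.04 (adjusted p = 0.494) and no longer called. A dimmer probe set of Rpl22 (mean 7.92) was at -0.23 on the deposited scale, and for midbrain minus cerebellum it gave -0.27 (adjusted p = 5.61e-04), where the brightest gave 0.18. Between midbrain and cerebellum, Rpl22l1 had the largest difference among the bright genes, 0.64 (SE 0.08, adjusted p = 1.21e-08).

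Among core genes, liver was higher for Rps18 (0.71, adjusted p = 3.15e-19), Rps2 (0.62) and Rplp0 (0.59, adjusted p = 6.76e-16). The gene of Rpl3, a protein close to the catalytic center of the large subunit, was lower, with 11.39 to 11.63 in liver and 11.91 to 12.32 in nervous tissue, a difference of -0.66 (SE 0.04, adjusted p = 3.16e-19), or -0.37 with centred arrays. Rps29 and Rps21 were each lower in liver by -0.50, or -0.21 with centred arrays. The largest difference was that of Rps15a, a protein of the small subunit, at 4.12 to 4.66 in liver and 7.18 to 7.98 in nervous tissue, a difference of -3.21 (SE 0.09, adjusted p = 6.17e-30). Its level in liver lies near the median level of all probe sets (4.38), and 4 of the 6 WT liver arrays read under it. With these values set to 4.38 liver was at least 8.43-fold lower, and 8.26-fold in KO mice. Rps15a is read by a single probe set, and no second probe set of the gene was there to compare.

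**Figure D3:**
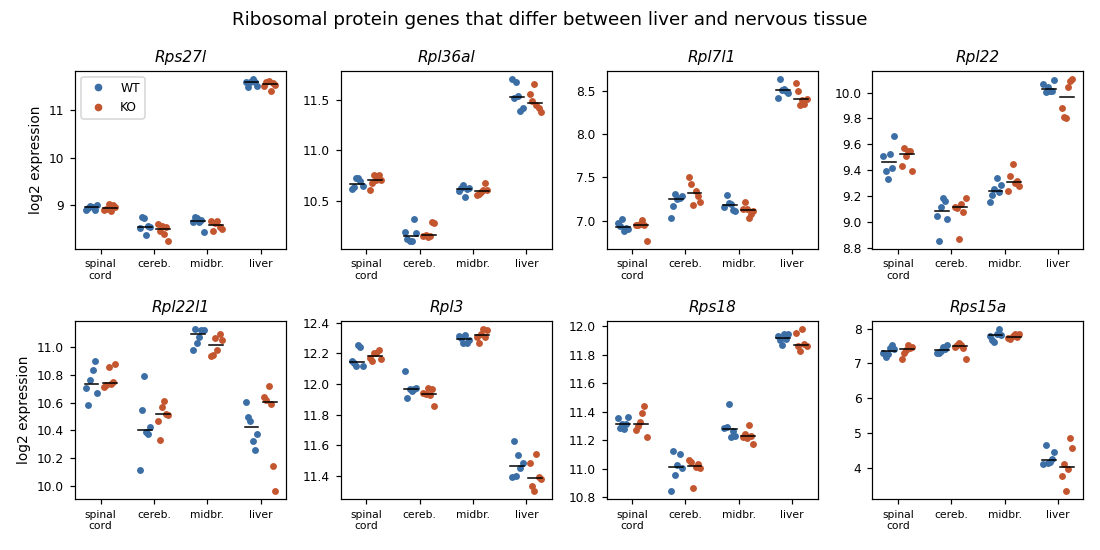
The plot of liver genes gives the log2 expression of selected ribosomal protein genes on each array by tissue, colored by genotype, with the median of each genotype as a line. Rps27l (11.49 to 11.65 in WT liver), Rpl36al and Rpl7l1 lie above all nervous tissue arrays in liver, and Rps15a (4.12 to 4.66 in WT liver) lies below them.

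The muscle paralog Rpl3l was at the low end of the scale in most samples, as was Rpl39l, which read 2.68 to 3.41 over the 4 tissues of WT mice. Rpl3l was highest on the spinal cord array of WT mouse 3 at 3 months (4.92), where the 7 muscle markers averaged 10.58, the highest of all arrays. The next was liver of KO mouse 122972 at 3 months, with 4.04 for Rpl3l and 8.46 for the muscle markers. Liver of WT mice 3 and 1 at 3 months followed with 3.43 and 3.41, where the muscle markers averaged 3.19 and 3.01, and then spinal cord of KO mouse 122973 at 3 months, with 3.34 and 8.45. On the other arrays high in muscle markers, Rpl3l was 2.81 (markers 7.34) and 2.74 (markers 7.21). The difference of Rpl3l between spinal cord and cerebellum was 0.56 (adjusted p = 0.0333) in WT mice and 0.40 (adjusted p = 0.137) in KO mice. Without the 5 arrays high in muscle markers it was 0.17 (adjusted p = 0.104) in WT mice. The part of muscle tissue in these values was not tested.

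**Figure D4:**
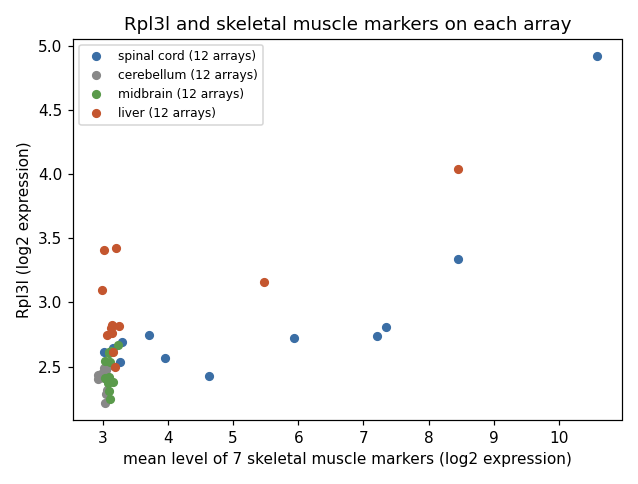
The plot of Rpl3l against muscle markers gives 1 point per array, with the mean log2 expression of 7 skeletal muscle markers on the x axis and the log2 expression of Rpl3l on the y axis, colored by tissue. The array with the highest markers (10.58, spinal cord of WT mouse 3 at 3 months) has the highest Rpl3l (4.92), and most arrays lie together at the low end of both axes.

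Several of these genes serve as reference genes in quantitative PCR, and the range of their 16 group means on the arrays was 0.96 (log2) for Rps18, 0.91 for Rplp0, 0.63 for Rps29, 0.47 for Rpl13a, 0.44 for Rpl32 and 0.42 for Rpl19. The smallest ranges of the 71 genes were those of Rpl28 (0.22), Rpl27a (0.27), Rpl35a (0.30), Rps7 (0.31) and Rps6 (0.33), and the largest that of Rps15a (4.14). On the deposited scale, liver minus nervous tissue in WT mice was -0.25 for Rpl13a, 0.22 for Rpl32 and -0.03 (adjusted p = 0.458) for Rpl19. With arrays centred on their medians it was 0.04 (adjusted p = 0.326), 0.51 and 0.26, so the direction for Rpl13a and Rpl19 turned with the scaling. Between KO and WT mice of the same tissue and age, the 6 reference genes differed by -0.15 to 0.12, and none was called in any of the 8 comparisons.

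The main question of the study was what the loss of TIA-1 changes. In the 6 comparisons of nervous tissue, 0 of the 71 genes differed between KO and WT mice at an adjusted p under 0.05 with limma. All probe sets gave calls for 0.311% and 0.162% in spinal cord at 3 and 6 months, 0.548% and 0.182% in cerebellum and 0.242% and 0.142% in midbrain. At an unadjusted p under 0.05, the genes counted 0 and 0 in spinal cord (5.21% and 3.79% of all probe sets), 11 and 1 in cerebellum (7.95% and 4.97%) and 11 and 0 in midbrain (6.53% and 4.61%). The 11 genes in cerebellum at 3 months were 10 higher and 1 lower in KO mice, and the 11 in midbrain at 3 months were 3 higher and 8 lower. The median change over the 71 genes lay between -0.03 (midbrain, 3 months) and 0.06 (cerebellum, 3 months).

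The size that these comparisons leave room for is given by the 95% intervals of the differences. The interval lay within -0.3 and 0.3 (log2) for 61 to 68 of the 71 genes: in cerebellum 61 at 3 months and 66 at 6 months, in liver 63 and 66, in midbrain 64 and 67, in spinal cord 66 and 68. For Rps6 no change exceeded 0.05 in size, and its intervals over the 8 comparisons reached from -0.16 to 0.14. For Rpl11 the changes lay between -0.12 and 0.18, and for Rps19 between -0.13 and 0.09. The smallest adjusted p in nervous tissue was that of Rps24, a small subunit protein, in cerebellum at 3 months (0.0612). Its values were 11.67, 11.63 and 11.62 in WT mice and 11.89, 11.92 and 11.90 in KO mice, without overlap, a difference of 0.26 (SE 0.07). At 6 months the difference was 0.01. Of the variants, Rps27l changed by -0.13 to 0.01, Rpl36al by -0.07 to 0.04 and Rpl22l1 by -0.09 to 0.16, and none of the 6 variants was called in any of the 8 comparisons.

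In liver, the spread over all probe sets was larger than in nervous tissue, and the test pools the spread over the tissues. There, 1 gene was called at each age, where 9.44% of all probe sets were called at 3 months and 11.5% at 6 months. At 3 months this was Rps15a, which read 4.12, 4.66 and 4.14 in WT mice (4.31 ± 0.30, SD, n = 3) and 3.77, 4.10 and 3.34 in KO mice (3.74 ± 0.38, SD, n = 3). The groups came close but did not overlap, 5 of the 6 values lay under the median level of all probe sets (4.38), and the difference was -0.57 (SE 0.15, limma adjusted p = 0.0109). The call was lost without KO mouse 122973 or without WT mouse 2 at 3 months, with differences of -0.37 to -0.75 over the mice left out. At 6 months it was Rpl14, with 5.79, 5.67 and 5.50 in WT mice (5.65 ± 0.15, SD, n = 3) and 4.78, 5.68 and 5.15 in KO mice (5.20 ± 0.45, SD, n = 3). The groups overlapped, and the difference was -0.45 (SE 0.14, limma adjusted p = 0.0265), with -0.24 to -0.69 over the mice left out. Its call was lost without KO mouse 122970 or 122973 or WT mouse 1 or 2 at 6 months. Both probe sets were dim, both are the only one of their gene, and both calls were lost when liver was fitted without the other tissues (adjusted p = 0.449 and 0.431).

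**Figure D5:**
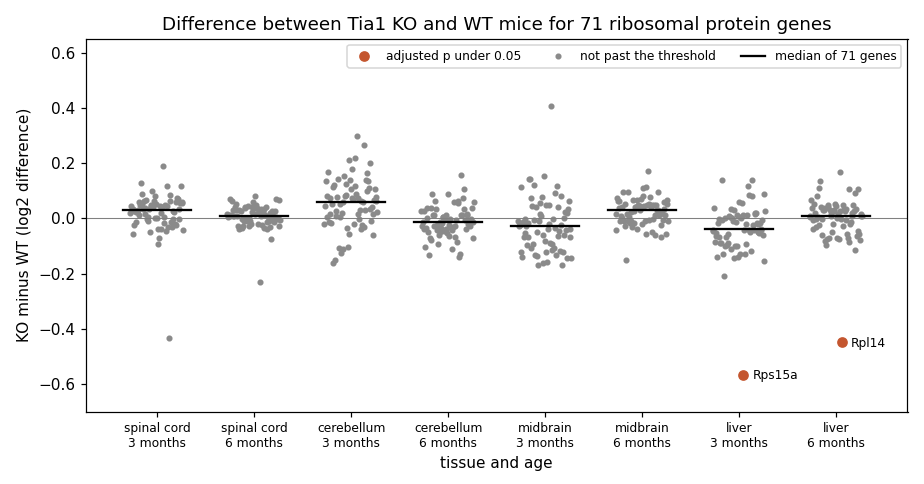
The plot of KO changes gives the KO minus WT log2 difference of each of the 71 genes in the 8 comparisons of tissue and age, with larger points for those at an adjusted p under 0.05 and a line at the median. Most points lie close to 0, and the called ones are Rps15a (-0.57) in liver at 3 months and Rpl14 (-0.45) in liver at 6 months.

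Between 3 and 6 months of age few genes changed. In cerebellum of WT mice 2 genes rose, where 1.13% of all probe sets were called: Rps24 from 11.64 ± 0.03 to 11.92 ± 0.06 (SD, n = 3), by 0.28 (SE 0.07, limma adjusted p = 0.0283), and Rplp2 from 11.52 ± 0.17 to 11.80 ± 0.09 (SD, n = 3), by 0.28 (SE 0.07, limma adjusted p = 0.0378). The values of Rplp2 were 11.34, 11.68 and 11.54 at 3 months and 11.82, 11.88 and 11.71 at 6 months, and neither gene had overlapping groups. The median change of the 71 genes in this comparison was 0.10 and 60 of them were above 0. The share of all probe sets above 0 was not computed. The comparison shares the WT mice of 3 months with the KO comparison of that age, in which the median was 0.06. Among these WT mice, mouse 1 gave the array with the lowest core mean of all (11.08) and the lowest median over all probe sets in cerebellum (4.10). The core mean was 11.12 ± 0.04 in cerebellum of WT mice at 3 months, 11.18 ± 0.04 in KO mice at 3 months, and 11.23 ± 0.02 and 11.22 ± 0.01 in WT and KO mice at 6 months (SD, n = 3). Without the arrays high in muscle markers 0 genes were called. None of those arrays is of cerebellum, so the levels compared stayed the same and only the pooled spread changed. Without the arrays high in choroid plexus markers, WT mouse 1 alone is left in cerebellum at 6 months, so no count is given. The calls were also lost for Rps24 without any of the 6 WT mice and for Rplp2 without any of 8 mice. Other settings called more genes: removal of dim probe sets, a trended and robust prior, and the mean of all probe sets of a gene (counts below). With another probe set of Rps24, one without the suffix of shared oligonucleotides, the change was -0.14 (adjusted p = 0.918). That probe set is much dimmer, with a mean of 5.81 against 11.91 for the one used.

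In liver of KO mice 3 genes changed with age, where 10.9% of all probe sets were called. Rps15a rose by 0.73 (SE 0.15, limma adjusted p = 0.00113), from 3.77, 4.10 and 3.34 to 3.98, 4.85 and 4.58, with overlap. All 3 values at 3 months and 1 at 6 months lay under 4.38, the median level of all probe sets, so that the size of the change is uncertain. Rpl22 rose from 9.83 ± 0.04 to 10.08 ± 0.03 (SD, n = 3), by 0.25 (limma adjusted p = 0.0281), without overlap. Its paralog Rpl22l1 fell from 10.66 ± 0.05 to 10.23 ± 0.32 (SD, n = 3), a change of -0.43 (limma adjusted p = 0.0121), with 10.64, 10.62 and 10.72 at 3 months and 10.59, 10.14 and 9.96 at 6 months. The call of Rpl22l1 was lost without any of 3 KO mice, that of Rpl22 without any of 4, and all 3 calls were lost when liver was fitted alone. In liver of WT mice 0 genes were called with limma (10.7% of all probe sets), with 6 at an unadjusted p under 0.05 (24.6%). In the other comparisons of age, 0 genes were called with limma, against 0.242% of all probe sets in spinal cord of WT mice, 0.0910% in spinal cord of KO mice, 0.0844% in cerebellum of KO mice, 0.258% in midbrain of WT mice and 0.00444% in midbrain of KO mice. At an unadjusted p under 0.05 these counted 7 (7.33%), 0 (3.01%), 4 (5.69%), 6 (7.59%) and 1 (3.29%) genes.

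The knockout effect itself was compared between the ages. It differed for 0 genes in spinal cord, cerebellum and midbrain with limma, against 0.0533%, 0.0577% and 0.0444% of all probe sets, and for 1, 4 and 6 genes at an unadjusted p under 0.05 (3.85%, 4.85% and 4.78%). In liver it differed for 1 gene, against 7.14%. This was Rps15a, whose KO minus WT difference was higher at 6 than at 3 months by 0.74 (SE 0.21, limma adjusted p = 0.0256). Between liver and the mean of the nervous tissues, the knockout effect at 3 months differed for 3 genes, against 6.01% of all probe sets. These were Rps15a (-0.66, adjusted p = 0.0149), Rpl22 (-0.29, adjusted p = 0.0387) and Rpsa (-0.26, adjusted p = 0.0486). At 6 months 0 genes differed with limma (7.13%), with 1 at an unadjusted p under 0.05 (21.0%).

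Genes that share the regulation or the pathway were listed beside the ribosomal proteins. Of 19 other TOP mRNAs measured, which encode elongation factors, subunits of the initiation factor eIF3 and the like, 14 were higher in midbrain than in cerebellum of WT mice and 2 lower (24.6% and 22.6% of all probe sets), and 12 were higher in spinal cord than in cerebellum and 2 lower (26.5% and 25.9%). Examples are Eef1b2, a subunit of the elongation factor that reloads eEF1A, with 0.58 for midbrain and 0.53 for spinal cord, and the histone chaperone Nap1l1 with 0.83 and 0.68. The 2 that were lower in midbrain were Vim, the intermediate filament vimentin (-1.76), and Pabpc1, the poly(A)-binding protein (-0.20). In the knockout, 1 of the 19 was called in cerebellum at 3 months (Eef1d, 0.31, adjusted p = 0.0286), 1 in liver at 3 months (Vim, 0.89, adjusted p = 1.20e-04) and 1 in liver at 6 months (Eif3k, 0.19, adjusted p = 0.0378), and 0 in the other 5 comparisons. Of all probe sets, 0.548%, 9.44% and 11.5% were called in these 3 comparisons. Fau, a ribosomal protein gene under another symbol, passed the test in none of the 8.

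Of 14 measured regulators of TOP mRNAs, among them Larp1, Mtor and Tial1 (which encodes TIAR), Tia1 was higher in KO mice in all 8 comparisons by its brightest probe set, which lies outside exon 4, with changes of 0.44 to 1.32. Apart from it, the only call was that of Tsc1, which restrains mTOR, in liver at 3 months (0.50, adjusted p = 0.00184). Of 27 factors of ribosome biogenesis, 0 were called in the 6 comparisons of nervous tissue. In liver at 3 months, Myc, a transcription factor that drives ribosome synthesis, was higher in KO mice (0.97, adjusted p = 0.0160) and Bms1 lower (-0.34, adjusted p = 0.00222). These 2 calls stand beside 9.44% of all probe sets. In liver at 6 months, where 11.5% of all probe sets were called in either direction, 7 were higher and 0 lower, led by Myc (1.45, adjusted p = 2.54e-04), Nop58 (0.59) and Ddx21 (0.56), which act in the nucleolus. Of 13 target genes of p53, Cdkn1a, which encodes the cell cycle inhibitor p21, was called higher in 6 of the 8 comparisons, by 1.31 to 1.89. In the others, spinal cord at 3 months and cerebellum at 6 months, it did not pass the threshold, which does not make it unchanged. The paper reports it as significantly raised in spinal cord and cerebellum at both ages, so also in these comparisons. It used another test, a moderated F-statistic whose significant changes were then assigned to single contrasts. The calls of other targets were in liver, where, with Cdkn1a, 3 were higher and 1 lower at 3 months (9.44% of all probe sets in either direction) and 4 were higher and 3 lower at 6 months (11.5%).

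The 73 genes of mitochondrial ribosomal proteins (Mrpl and Mrps), which translate the mitochondrial genome and whose mRNAs do not belong to the TOP class, were measured beside them. In WT mice 62 were higher in liver than in nervous tissue and 7 lower (47.4% and 35.4% of all probe sets), with a median of 0.63 on the deposited scale, where the median of the cytosolic genes was 0.02. Spinal cord was higher than cerebellum for 47 and lower for 4 (26.5% and 25.9%), with a median of 0.21, and midbrain was higher than cerebellum for 39 and lower for 4 (24.6% and 22.6%), with a median of 0.16. In the knockout, 1 was called in cerebellum at 3 months (Mrpl40, 0.33) and 1 in midbrain at 3 months (Mrpl42, 0.33), both higher in KO mice, against 0.548% and 0.242% of all probe sets. In liver 1 was higher and 1 lower at 3 months (9.44% in either direction) and 6 were lower at 6 months (11.5%).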

How the data were processed

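RNA was extracted with the RNeasy Midi kit, labelled with the 3′ IVT Express kit and hybridized to an Affymetrix GeneChip HT plate for the mouse genome, per the labels. The log2 expression values were deposited by the authors after background correction, quantile normalization and summarization by Robust Multichip Average (RMA) in R 2.14.0. Quantile normalization gives all arrays nearly the same distribution, so a change shared by all mRNAs would not be seen. From 45141 probe sets 104 controls were removed. Those with a single gene symbol in the platform annotation number 28898, and 15 probe sets that name a ribosomal protein gene together with other symbols were not used.

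Group means were fitted with limma 3.58.1 (R 4.3.3, statmod 1.5.0 and data.table, version 1.17.8) to all 45037 remaining probe sets, with empirical Bayes moderation (prior degrees of freedom 4.97, residual 32). KO against WT mice, ages, differences of the knockout effect, and tissues within a genotype (both ages together) were contrasts of this model. A gene was called where the Benjamini-Hochberg adjusted p over all probe sets was under 0.05.

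Results of these data were already known when the genes, the lists and the rule for naming genes were chosen. The rule names the variants, the reference genes, Rpl5, Rpl11, Rps6, Rps19, Rpl22, Rplp1, Rplp2 and Rpsa, up to 5 called genes per direction in each comparison, the 3 brightest and 3 dimmest genes, the 5 genes whose probe sets differ most, and 3 genes of each list described. Genes outside it (such as those with the smallest ranges, the sequence examples, and Rps24 in the knockout) were named after their values were seen.

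The mouse was not used as a block, since deviations from the group means were hardly more alike within a mouse (median correlation 0.0511, 72 pairs of tissues) than between mice (-0.0219, 144 pairs). Mouse numbers recur at both ages and were taken to be separate animals. The steps were tested on simulated data. The alternatives were nested F decisions, fits of single tissues, removal of dim probe sets, renewed quantile normalization within tissues, centring on array medians, a robust and trended prior, a replicate block for the mouse, the mean over the probe sets of a gene, and leaving out each mouse. Probe sets without a suffix of shared oligonucleotides, the leaving out of arrays high in muscle or choroid plexus markers and the limit of 4.38 for dim values of Rps15a were chosen after seeing the data. Sequences and gene starts are from RefSeq (GRCm38.p6).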

Additional observations from a re-analysis of the deposited data

Results flagged for a closer look

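For 4 results the knockout effect differed between the ages or between tissues in limma's test of the difference itself. In liver, the KO minus WT difference of Rps15a was higher at 6 than at 3 months by 0.74 (adjusted p = 0.0256), with KO values of 3.77, 4.10 and 3.34 at 3 months and 3.98, 4.85 and 4.58 at 6 months, and WT values of 4.12, 4.66 and 4.14 and of 4.18, 4.26 and 4.47. Of these 12 values 8 lay under the median level of all probe sets (4.38). The call was lost without any of 6 mice (0.54 to 0.98 over the mice left out). At 3 months, the KO effect on Rps15a in liver minus that in nervous tissue was -0.66 (adjusted p = 0.0149), lost without KO mouse 122973 or WT mouse 2 of that age.

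At 3 months, the same difference was -0.29 for Rpl22 (adjusted p = 0.0387). Its liver values were 10.07, 10.00 and 10.05 in WT mice and 9.88, 9.81 and 9.80 in KO mice, without overlap, a KO change of -0.21 (adjusted p = 0.0793), and in nervous tissue the changes were 0.14 (midbrain), 0.09 (spinal cord) and 0.02 (cerebellum). For Rpsa the difference was -0.26 (adjusted p = 0.0486), from a KO change of -0.14 in liver and of 0.05, 0.14 and 0.15 in spinal cord, cerebellum and midbrain. These calls were lost without any of 7 mice for Rpl22 and any of 9 mice for Rpsa.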

How the results depend on the processing

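The counts for cerebellum against spinal cord and midbrain stayed within 1.5 times under all alternatives run, and among mice left out gave 54 to 58 (spinal cord) and 58 to 62 (midbrain) called genes in WT mice. With the mouse as a replicate block (consensus correlation 0.0303), 30 of 30 counts stayed within 1.5 times, for example 1 gene in liver at 3 months and 1 at 6 months for KO minus WT, and no other call changed. Small counts moved, and the cause was not tested. The counts that follow stand without the share of all probe sets, which was not computed in these settings. All 8 gene calls followed within a tissue were lost with each tissue fitted alone (limma adjusted p = 0.117 to 0.574). Such a fit keeps the arrays compared and changes the spread and its degrees of freedom. With nested F decisions, KO minus WT gave 1 gene in midbrain and 0 in liver at 3 months, age gave 1 each in spinal cord WT, cerebellum KO, midbrain WT and liver KO, the age difference of the KO effect in liver gave 0, its difference between liver and nervous tissue at 6 months 1, and spinal cord minus midbrain 34 (WT) and 32 (KO), against 21 and 19. With each tissue alone, KO minus WT gave 1 in midbrain at 3 months and 0 in liver at 3 and at 6 months, age gave 0 in cerebellum WT and 0 in liver KO, and the age difference in liver 0. With the dim filter, KO minus WT at 3 months gave 1 in cerebellum and 2 in liver, and age gave 7 in cerebellum WT and 2 in liver WT. With quantile normalization again, age gave 1 in cerebellum WT and 1 in liver WT. With the trended and robust prior, KO minus WT at 3 months gave 1 in cerebellum and 4 in liver, age gave 8 in cerebellum WT and 3 in liver WT, the KO effect between liver and nervous tissue at 3 months 5, and spinal cord minus midbrain in KO mice 29. With the mean of all probe sets, age gave 4 in cerebellum WT, 2 in liver WT and 6 in liver KO, and the KO effect between liver and nervous tissue at 3 months 1. With unshared probe sets, age in liver WT gave 2, and Rps24 in cerebellum WT, read by a dim probe set (mean 5.81), reversed to -0.14 (adjusted p = 0.918). Without the arrays high in muscle markers, KO minus WT in liver at 3 months gave 2, age 0 in cerebellum WT and 1 in liver WT, and spinal cord minus midbrain in KO mice 10. Without those high in choroid plexus markers, the age difference in liver gave 0, the KO effect between liver and nervous tissue at 3 months 1, and spinal cord minus midbrain in KO mice 11. Age in cerebellum WT is not counted there, since WT mouse 1 alone is left at 6 months. Over the mice left out, KO minus WT gave 0 to 1 in cerebellum at 3 months and in liver at 3 and at 6 months, age 0 to 3 in cerebellum WT, 0 to 1 in liver WT and 1 to 3 in liver KO, the age difference in liver 0 to 1, the KO effect between liver and nervous tissue 0 to 3 at 3 months and 0 to 1 at 6 months, and spinal cord minus midbrain in KO mice 11 to 22. In all, 34 of 360 such counts moved by over 1.5 times, and 59 of 300 values of single genes lost their call.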

Other observations

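The probe sets of 1 gene did not always move together. The largest spread of the mean KO minus WT change between probe sets of the same gene was 0.25 (log2) for Rps13, 0.23 for Rpl41, 0.18 for Rpl9, 0.14 for Rps20 and 0.14 for Rps24. For Rps13, a dim probe set (mean 5.68) had a mean KO change of -0.25 and differed by -0.62 between spinal cord and cerebellum of WT mice, while a bright one (mean 10.68) had 0.00 and 0.17. For Rpl41, a dim probe set (mean 4.29) had a mean KO change of -0.22 and differed by -0.50 between the same tissues, while the brightest (mean 12.20) had -0.00 and 0.27. Of the 63 probe sets that were not used for a gene, 3 passed the test in any of the 8 comparisons of KO with WT mice. These were probe sets of Rpl17 (smallest adjusted p = 0.0446), Rpl21 (adjusted p = 0.0146) and Rps2 (adjusted p = 0.0397), named after their values were seen.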
